A study of Mus musculus with 6 samples.

Results

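The Fc receptor genes of the mouse were followed through cultured dendritic cells (DCs) and healing skin wounds. The 7 genes were chosen by name, as receptors for the constant part of antibodies or as a chain of them, and all 7 were among the 31053 genes counted in every library. Bone marrow of wild-type C57/BL6 mice was cultured to DCs that were left untreated, stimulated with vitamin D3 (VD3) or edited with Cas9 and 3 guides against Ndrg2. VD3 (1e-06 M) was added on day 7 of the culture and left for 24 h. Wound tissue was explanted on day 10 from excisional skin wounds under pullulan-collagen hydrogels that carried control DCs, Ndrg2-KO DCs or no cells (blank). The study describes 5 animals per wound group and an age of 6 weeks. It used wild-type C57BL/6J and diabetic db/db mice of both sexes, and it ties the day of explant to the healing curves of the wild-type mice, without stating the genotype of the mice that gave the tissue. Each of the 6 conditions is 1 droplet library, so no value has a replicate, no difference was tested, and a difference between libraries cannot be told apart from a difference between conditions. The edited DC culture had been nucleofected and the untreated culture had not, so editing and nucleofection cannot be told apart either. The control DCs in the wounds are labelled untreated, whereas the methods describe them as nucleofected with 3 non-targeting guides.

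Fc receptors let myeloid cells bind antibody-coated targets. Fcgr1, Fcgr3 and Fcgr4 encode activating IgG receptors that hand their signal to the common gamma chain, Fcer1g, whose cytoplasmic ITAM motif is phosphorylated by Src family kinases and then recruits Syk. Fcgr2b encodes the inhibitory IgG receptor, whose ITIM motif recruits the phosphatase SHIP, the product of Inpp5d, so that the balance of Fcgr2b against the activating receptors sets how readily DCs and macrophages respond to immune complexes. Fcer1a encodes the IgE-binding chain of mast cells and basophils. Fcgrt encodes the neonatal Fc receptor, which pairs with B2m and returns IgG and albumin from endosomes to the cell surface.

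In GENCODE M21 (GRCm38) the receptors of the low-affinity cluster lie close together on chromosome 1, namely Fcgr2b (ENSMUSG00000026656, chr1:170958617-170976547, minus strand), Fcgr4 (ENSMUSG00000059089, chr1:171018920-171029761, plus strand) and Fcgr3 (ENSMUSG00000059498, chr1:171051174-171064935, minus strand). Fcer1g (ENSMUSG00000058715, chr1:171229572-171234365) and Fcer1a (ENSMUSG00000005339, chr1:173221284-173227214) follow on the minus strand of the same chromosome. Fcgr1 (ENSMUSG00000015947) lies at chr3:96282909-96293969 and Fcgrt (ENSMUSG00000003420) at chr7:45092990-45103851, both on the minus strand. Of the 60-base stretches in the last 600 bases of the protein-coding transcripts, 3.94% were shared with another member for Fcgr2b and none for the other 6 genes, so few reads at the 3′ ends could be split between these related genes. Over whole transcripts 8.36% were shared for Fcgr3, 3.63% for Fcgr2b and none for the rest. Fcgr2b and Fcgrt each overlap an annotated antisense gene.

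The promoters of the 4 IgG receptor genes are shown because the levels of these genes, and the share of the inhibitory one, are compared between cultures and wounds. Each line gives the 250 bases before the RefSeq start (GRCm38.p6), 5′ to 3′ on the strand of the gene. Capitals mark the letters GAGGAA on either strand, the core bound by ETS factors such as PU.1, and TTCNNNGAA, the spaced palindrome bound by STAT factors. The windows are chr3:96293970-96294219 for Fcgr1, chr1:170976072-170976321 for Fcgr2b, chr1:171059404-171059653 for Fcgr3 and chr1:171018676-171018925 for Fcgr4. Those of Fcgr2b and Fcgr3 lie within the GENCODE M21 bounds of these genes, so any start further upstream was not covered.
Fcgr1: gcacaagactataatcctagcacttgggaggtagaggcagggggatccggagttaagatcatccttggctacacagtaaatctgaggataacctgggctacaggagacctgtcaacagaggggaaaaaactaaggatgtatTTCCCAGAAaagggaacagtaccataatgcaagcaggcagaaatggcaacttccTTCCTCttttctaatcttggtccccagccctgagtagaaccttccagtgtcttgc
Fcgr2b: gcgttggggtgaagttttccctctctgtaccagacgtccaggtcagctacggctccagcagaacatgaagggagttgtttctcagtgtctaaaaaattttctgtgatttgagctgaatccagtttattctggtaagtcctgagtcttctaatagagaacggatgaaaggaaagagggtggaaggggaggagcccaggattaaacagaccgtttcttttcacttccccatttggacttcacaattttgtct
Fcgr3: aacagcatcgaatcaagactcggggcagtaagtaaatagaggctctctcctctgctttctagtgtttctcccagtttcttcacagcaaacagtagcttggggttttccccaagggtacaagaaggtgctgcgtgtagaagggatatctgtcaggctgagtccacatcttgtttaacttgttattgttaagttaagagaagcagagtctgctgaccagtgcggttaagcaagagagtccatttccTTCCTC
Fcgr4: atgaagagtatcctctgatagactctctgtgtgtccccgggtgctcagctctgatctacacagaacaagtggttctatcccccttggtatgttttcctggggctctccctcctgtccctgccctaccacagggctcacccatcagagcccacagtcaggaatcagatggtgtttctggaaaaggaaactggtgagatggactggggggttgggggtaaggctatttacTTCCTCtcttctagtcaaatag

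Fcgr1, Fcgr3 and Fcgr4 each held GAGGAA on the opposite strand close to the start, with the first base of the match at -55, -6 and -22. The match in Fcgr3 began at -15 from its other annotated start. Fcgr1 also held TTCCCAGAA, which begins at -109. Neither motif occurred in these windows of Fcgr2b, Fcer1g or Fcgrt, and Fcer1a held GAGGAA at -216. Among 32851 promoters of the same length, 23.3% held GAGGAA on either strand and 7.02% held TTCNNNGAA. A match describes letters and not a bound site.

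Kept cells numbered 7257 (untreated), 8825 (VD3 stimulated) and 7969 (Ndrg2-KO) in the cultures and 1948 (control DCs), 5681 (Ndrg2-KO DCs) and 3403 (blank) in the wounds, with median depths of 4415 to 16316 UMIs (unique molecules counted per cell). Levels are given as CPM, the UMIs of a gene per 1000000 UMIs of all genes summed over the cells, with exact Poisson 95% intervals that cover counting error only. Ndrg2 itself was at 4.62 CPM in untreated, 1.42 in VD3 stimulated and 0.884 in Ndrg2-KO DCs. The DC markers Itgax and H2-Ab1 were present in all 3 cultures, Itgax at 146, 77.8 and 263 CPM and H2-Ab1 at 908, 561 and 487 CPM in the same order, and neutrophil-like cells were also found, 924, 1111 and 35 in the same order. Pairs of libraries shared between 1 and 19 cell barcodes.

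Ndrg2-KO DCs carried more RNA of the activating IgG receptors than the other cultures, and VD3 stimulated DCs carried less Fcgr1. Fcgr1, the high-affinity receptor of monocyte-derived cells, was counted at 91.2 CPM (89.6 to 92.7) in the edited, 42.8 CPM (41.7 to 44.0) in the untreated and 11.2 CPM (10.6 to 11.8) in the VD3 culture. The edited culture was thus the highest and the VD3 culture the lowest, with log2 ratios to untreated of 1.09 (1.04 to 1.13) and -1.93 (-2.02 to -1.85). Fcgr3, an activating receptor of lower affinity, reached 582 CPM in the edited culture, against 214 CPM in the untreated and 241 CPM in the VD3 culture. Its log2 ratio to untreated was 1.45 (1.43 to 1.47) in the edited and 0.18 (0.15 to 0.20) in the VD3 culture. Fcgr4, the receptor that binds IgG2 complexes on neutrophils and some monocytes, was scarce in culture, at 0.867, 0.893 and 8.39 CPM in untreated, VD3 stimulated and Ndrg2-KO DCs. Its log2 ratio was 3.27 between edited and untreated cells (1205 and 115 UMIs), whereas that between VD3 stimulated and untreated cells, 0.04 (-0.35 to 0.44), was not distinguishable at this depth. The ratio of edited to untreated cells ran from 2.38 to 3.34 under other settings.

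**Figure D1:**
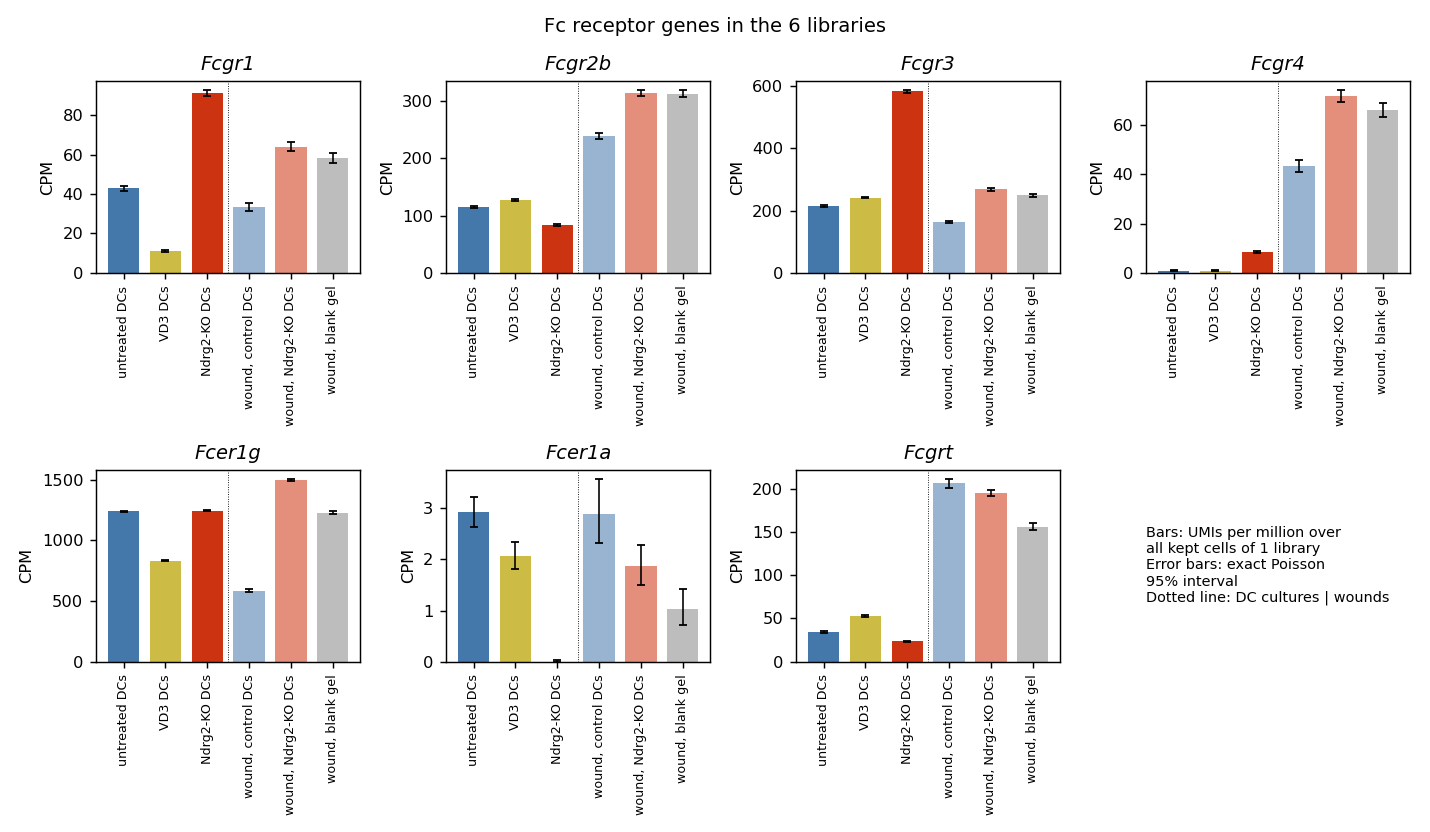
Levels of the 7 Fc receptor genes (vertical axes, CPM, each panel on its own scale from 0) in the 6 libraries (horizontal axes). Bars are 1 library each, with exact Poisson 95% intervals. The Ndrg2-KO DCs stand highest among the cultures for Fcgr1 (91.2 CPM) and Fcgr3 (582 CPM) and have no UMI of Fcer1a, and the wound with control DCs is the lowest of the wounds for Fcgr1, Fcgr2b, Fcgr3, Fcgr4 and Fcer1g.

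The common chain stood close together in the edited and untreated sums. Fcer1g was at 1243 CPM in the edited and 1239 CPM in the untreated culture (log2 ratio 0.01, and 0.35 among cells under 5% mitochondrial UMIs), and the VD3 culture was lower, at 830 CPM, with a log2 ratio to untreated of -0.58 (-0.59 to -0.57). The inhibitory receptor Fcgr2b stood at 84.2 CPM in the edited, 115 CPM in the untreated and 128 CPM in the VD3 culture. The edited culture was thus the lowest in this sum, with a log2 ratio of -0.45 (-0.49 to -0.42), but the direction turned to 0.33 among cells under 5% mitochondrial UMIs.

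Set against Fcgr3, Fcgr2b made up 35.1% (34.6 to 35.5) of the UMIs of the pair in untreated DCs, 34.6% (34.1 to 35.0) in VD3 stimulated DCs and 12.6% (12.4 to 12.8) in Ndrg2-KO DCs, with exact binomial intervals. UMIs from 3′ libraries count molecules and not gene length, and the share is compared here between libraries and between clusters. Among clusters with at least 100 UMIs of the pair, the share in Ndrg2-KO cells ran from 5.05% to 16.8%. In the untreated neutrophil-like cluster and in untreated cells of the clusters led by Ms4a3 and Elane or by Plet1 and Mgl2 it was 33.8%, 34.4% and 38.0%. Within the cluster led by Ms4a3 and Elane, which held cells of both cultures, the share was 34.4% (33.7 to 35.0) in untreated and 15.0% (12.5 to 17.8) in Ndrg2-KO cells. The other cultures also held lower shares, and over all such clusters they ran from 3.19% to 38.0% in untreated and from 7.23% to 43.1% in VD3 stimulated cells, so that both ranges overlapped the edited one. The lowest were those of cDC1-like cells, at 3.19% and 7.23%, and of untreated cells of the shallow cluster without a name, at 9.24%, where VD3 stimulated cells had 20.0%. In the main mature DC-like cluster of each culture the share was 17.9% (14.5 to 21.7) in untreated, 21.1% (19.0 to 23.4) in VD3 stimulated and 8.36% (7.30 to 9.51) in Ndrg2-KO cells. The shares were not recomputed under other settings. Over mature DC-like cells under 5% mitochondrial UMIs, the log2 ratio of edited to VD3 stimulated cells was 2.47 for Fcgr2b, in place of 0.54. That of Fcgr3 was 3.09, in place of 2.07. Basophil-like cells had 27.4% without treatment and 18.8% with VD3.

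**Figure D2:**
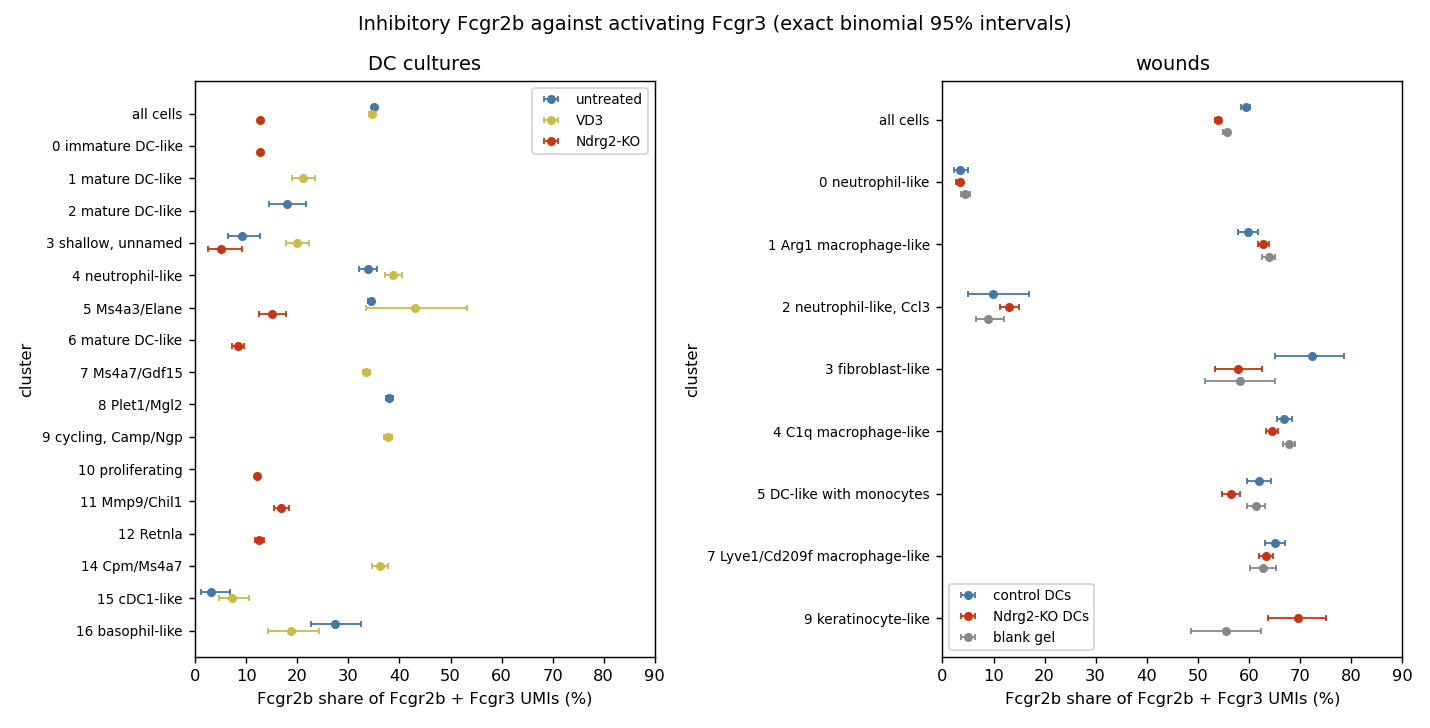
Share of Fcgr2b in the UMIs of Fcgr2b and Fcgr3 together (horizontal axes, percent), for all cells and for clusters with at least 100 such UMIs (vertical axes), in the DC cultures (left) and the wounds (right). Points are 1 library in 1 cluster and bars are exact binomial 95% intervals. Over all cells Ndrg2-KO DCs sit at 12.6% against 35.1% and 34.6% in the other cultures, and wound neutrophil-like cells sit at 13.1% or below while wound macrophage-like clusters sit at 59.8% or above.

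Fcer1a was held by a small basophil-like cluster. The untreated culture held 388 UMIs of it (2.93 CPM) and the VD3 culture 241 (2.07 CPM), and no UMI was found in the edited culture, where 3 counts would give 0.0209 CPM. Against this floor the untreated level was at least 140.1-fold higher, a bound without the counting error of the untreated sum, and the exact interval of the log2 ratio reached up to -6.83. The basophil-like cluster, which was led by Prss34 and Mcpt8, basophil proteases, and by the immunoglobulin gene Igkc, held 57 untreated, 77 VD3 stimulated and 1 Ndrg2-KO cell. It carried 93.3% of the Fcer1a UMIs of untreated and 99.6% of those of VD3 stimulated DCs, at 598 and 331 CPM. Ms4a2, the beta chain of the same receptor, had 317, 203 and 0 UMIs in the cultures. Fcgrt stood at 52.5 CPM in the VD3, 34.4 CPM in the untreated and 23.5 CPM in the edited culture, with log2 ratios to untreated of 0.61 (0.55 to 0.67) and -0.55 (-0.62 to -0.49). The VD3 culture was thus the highest and the edited culture the lowest for this receptor.

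In cells drawn to 2000 UMIs each, a UMI of Fcgr3 was found in 26.7% of untreated, 31.0% of VD3 stimulated and 53.8% of Ndrg2-KO DCs, and at full depth in 56.5%, 52.0% and 79.3%. The drawing left out 472, 1149 and 134 shallower cells. Fcgr1 was found in 6.10%, 2.42% and 13.6% of the drawn cells in the same order, and Fcer1g in 73.1%, 65.8% and 82.0%. Among mature DC-like cells the drawn shares of untreated, VD3 stimulated and Ndrg2-KO cells were 1.31%, 3.24% and 10.1% for Fcgr3, and 0.262%, 0.261% and 4.61% for Fcgr1. Those of Fcer1g were 47.0%, 43.3% and 55.5%.

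Counted at 2-fold with at least 100 UMIs in the 2 sums, 4 of the 7 members passed between Ndrg2-KO and untreated DCs, with Fcgr1, Fcgr3 and Fcgr4 higher and Fcer1a lower, beside 17.1% of 12461 genes. Fcgr1 alone passed between VD3 stimulated and untreated DCs, as lower, beside 10.3% of 12296 genes. Between Ndrg2-KO and VD3 stimulated DCs 5 members passed, with Fcgr1, Fcgr3 and Fcgr4 higher and Fcer1a and Fcgrt lower, beside 20.2% of 12402 genes, and 3 passed when every cell had the same weight. The comparisons share libraries, and 7 genes are too few to read more from these counts.

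The cells of the 3 cultures together were grouped into 17 clusters by their RNA, with the 7 members left out, and a name ending in -like rests on at least 3 marker genes. Other clusters, and some that did pass markers, are called by their number or leading genes. Among the latter, clusters 7 and 11 passed 6 and 3 macrophage markers, and clusters 5 and 9 each passed 6 proliferation markers. Clusters 0, 10, 11 and 12 came almost wholly from the edited culture and were immature DC-like, proliferating, led by Mmp9 and Chil1, and led by Retnla. Clusters 5 and 8, led by Ms4a3 and Elane and by Plet1 and Mgl2, came mostly from the untreated culture, clusters 7, 9 and 14 from the VD3 culture, and the neutrophil-like cluster 4 from both of these.

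Within every culture the IgG receptors differed between the mature DC-like clusters and the remaining cells. The mature DC-like clusters, named from at least 3 of a list that holds Ccr7, Fscn1, Ccl22, Il4i1 and Cacnb3, held less of these receptors than the rest. The rest was not immature DCs alone. The immature DC-like cluster held 5 untreated, 1 VD3 stimulated and 3599 edited cells, beside neutrophil-like, proliferating and other cells. A different mature DC-like cluster held most of the class in each culture, namely cluster 1 in the VD3, cluster 2 in the untreated and cluster 6 in the edited culture. Mature DC-like cells held Fcgr3 at 9.43 CPM (untreated), 21.6 CPM (VD3) and 90.9 CPM (Ndrg2-KO), against 305, 409 and 689 CPM in the cells outside these clusters. Fcgr1 was at 1.24, 1.13 and 34.5 CPM in the mature class and at 61.5, 18.9 and 103 CPM outside it. Mature DC-like cells were 37.0%, 39.5% and 26.5% of the untreated, VD3 stimulated and Ndrg2-KO cells, and they held 1.37%, 3.86% and 2.78% of the Fcgr3 UMIs. Fcer1g was at 343, 302 and 443 CPM in the mature class and 1640, 1232 and 1417 CPM outside it.

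**Figure D3:**
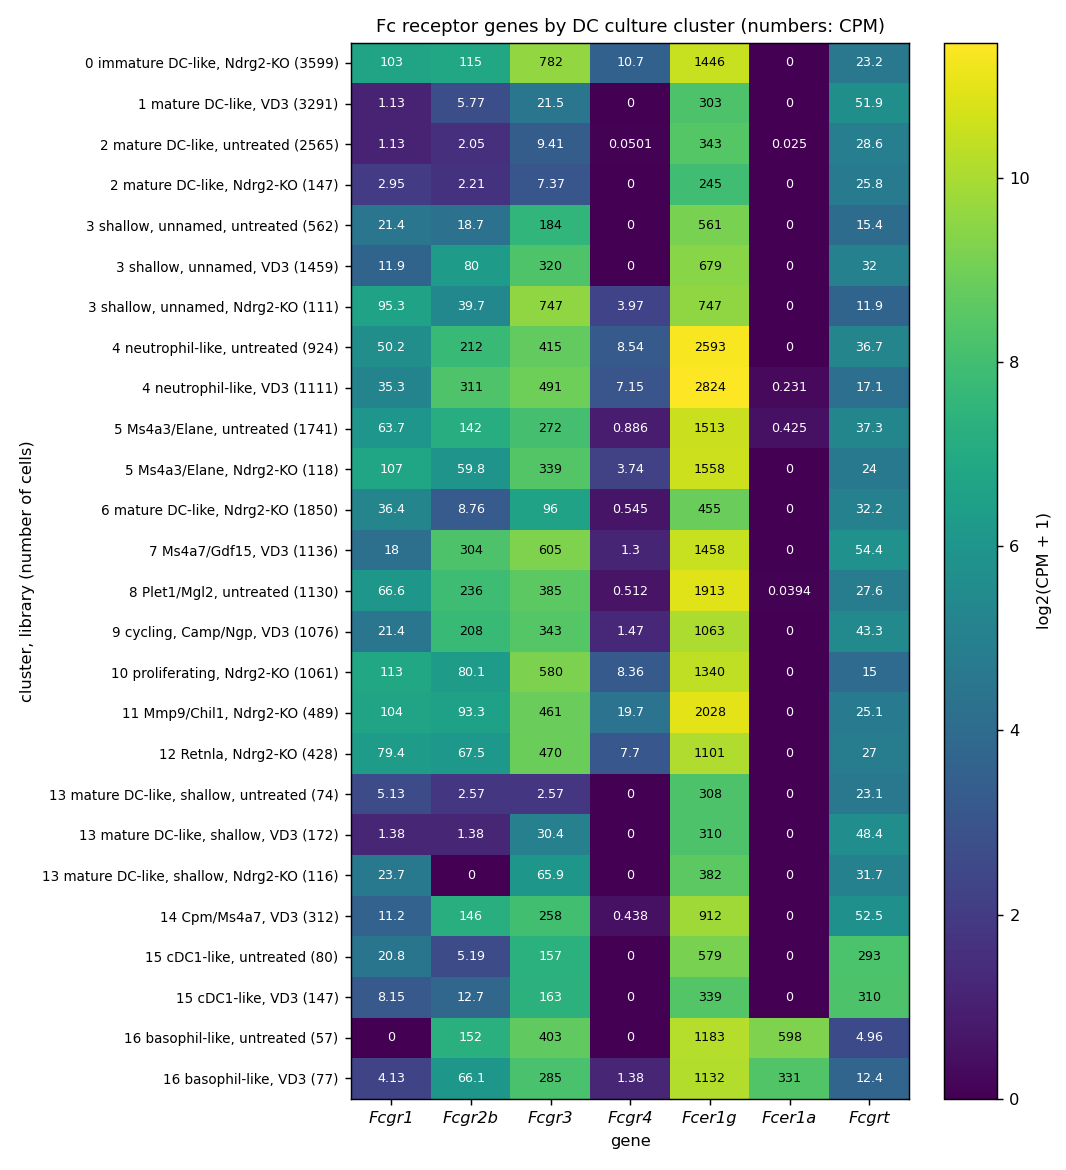
Levels of the 7 genes (columns) in DC culture clusters split by library (rows, with the number of cells, at least 50). Colour is log2(CPM + 1) and the printed number is CPM. Mature DC-like rows of the untreated and VD3 cultures are dark for Fcgr1, Fcgr2b and Fcgr4 and cluster 6 of the edited culture is lighter for Fcgr1 (36.4 CPM), Fcer1a is bright only in the basophil-like rows (598 and 331 CPM), and Fcgrt is brightest in the cDC1-like rows (293 and 310 CPM).

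Mature DC-like cells of the edited culture nevertheless held more Fcgr1 and Fcgr3 than those of the untreated culture. The log2 ratio was 4.79 (4.38 to 5.23) for Fcgr1, 3.27 (3.11 to 3.43) for Fcgr3 and 2.02 (1.64 to 2.40; 3.49 among cells under 5% mitochondrial UMIs) for Fcgr2b, whereas it was 0.15 (0.02 to 0.28) for Fcgrt and 0.37 (0.33 to 0.40) for Fcer1g, and the median over all genes was 0.22. The first 3 of these 5 members with enough UMIs passed 2-fold, beside 13% of 10290 genes. Most of these UMIs lay in cluster 6, with 96.0 CPM of Fcgr3 and 36.4 CPM of Fcgr1. The 147 edited cells in cluster 2, the cluster that held most untreated mature cells, were at 7.37 CPM (3.53 to 13.5) of Fcgr3 and 2.95 CPM (0.80 to 7.54) of Fcgr1, beside 9.41 and 1.13 CPM in the untreated cells of that cluster. Cells of both clusters came from the same library. VD3 stimulated mature DC-like cells held more Fcgr2b, at 5.68 CPM against 2.05 CPM (log2 ratio 1.47, 1.12 to 1.84), and more Fcgr3 (1.20, 1.03 to 1.37), 2 members past 2-fold beside 6.52% of 10524 genes, although none passed among cells under 5% mitochondrial UMIs, where 3 members had enough UMIs. For Fcgr1 no difference was detectable there (-0.13, -0.71 to 0.44), with 57 and 51 UMIs. Against VD3 stimulated mature cells the edited ones were higher for Fcgr1 (4.93, 4.54 to 5.34) and Fcgr3 (2.07, 1.97 to 2.18; 3.09 among cells under 5% mitochondrial UMIs), 2 of 5 members past 2-fold beside 12.7% of 10470 genes.

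Outside the mature clusters the edited cells were higher than untreated cells for Fcgr3 (log2 ratio 1.17, 1.15 to 1.19), Fcgr1 (0.75, 0.71 to 0.80) and Fcgr4 (3.03, 2.75 to 3.32) and lower for Fcgr2b (-0.72, -0.76 to -0.69), Fcgrt (-0.77, -0.85 to -0.70) and Fcer1g (-0.21, -0.22 to -0.20). Among cells under 5% mitochondrial UMIs the ratio of Fcgr2b there was -0.09, that of Fcer1g 0.05 and that of Fcgr4 2.41, and with the same weight for every cell that of Fcgr4 was 2.15. Past 2-fold were 3 of 7 members there (Fcgr3, Fcgr4 and Fcer1a) beside 19.5% of 12028 genes, 1 (Fcgr1, lower) between VD3 stimulated and untreated cells beside 10.3% of 11678 genes, and 5 (Fcgr1 and Fcgr4 higher; Fcgr2b, Fcer1a and Fcgrt lower) between edited and VD3 stimulated cells beside 21.1% of 11920 genes, of which 3 passed when every cell had the same weight or with under 5% mitochondrial UMIs. Cluster by cluster, Fcgr1 ran from 79.4 to 113 CPM in edited cells of clusters 0, 5, 10, 11 and 12, and from 50.2 to 66.6 CPM in untreated cells of clusters 4, 5 and 8, with no overlap among these clusters of at least 100 cells. It ran from 11.2 to 35.3 CPM in VD3 stimulated cells of clusters 4, 7, 9 and 14. The shallow cluster 3 and the cDC1-like cluster 15 were left out of these ranges. In cluster 3 Fcgr1 was at 95.3 CPM (61.1 to 142) in the edited culture, at 11.9 CPM with VD3 and at 21.4 CPM without treatment, and in cluster 15 it was at 8.15 CPM in the 147 VD3 stimulated cells. The 35 edited cells of the neutrophil-like cluster 4 held 3 UMIs (22.6 CPM, 4.67 to 66.1). Over the clusters of those ranges Fcgr3 ran from 339 to 782 CPM in edited cells, from 258 to 605 CPM with VD3 and from 272 to 415 CPM without treatment, so that all 3 ranges overlapped. Within cluster 5, which the edited and untreated cultures shared, Fcgr3 was at 339 CPM (313 to 366) in edited and 272 CPM (267 to 276) in untreated cells, and Fcgr1 at 107 CPM (93.1 to 123) and 63.7 CPM (61.7 to 65.9). Among clusters with at least 50 cells of a library, Fcgr4 was highest in cluster 11 of the edited culture, at 19.7 CPM, and was at 8.54 and 7.15 CPM in the neutrophil-like cells of the untreated and VD3 cultures. Fcgr2b was highest in the neutrophil-like cells and cluster 7 (led by Gdf15 and Ms4a7) of the VD3 culture, at 311 and 304 CPM.

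Fcgrt took another course across the states. It was at 28.6 CPM in mature and 36.9 CPM in other untreated cells, at 51.8 and 53.0 CPM with VD3, and in the opposite order, at 31.9 and 21.6 CPM, in the edited culture. The cDC1-like cells, marked by Itgae and Clec9a, were the highest, at 293 CPM (263 to 326) in the untreated and 310 CPM (285 to 335) in the VD3 culture. The edited culture had 1 such cell. In the mature class the VD3 level was above the untreated level by a log2 ratio of 0.85 (0.75 to 0.95). Outside the mature clusters that ratio was 0.52 and ran from -0.16 to 0.61 under other settings, so its direction was not stable.

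**Figure D4:**
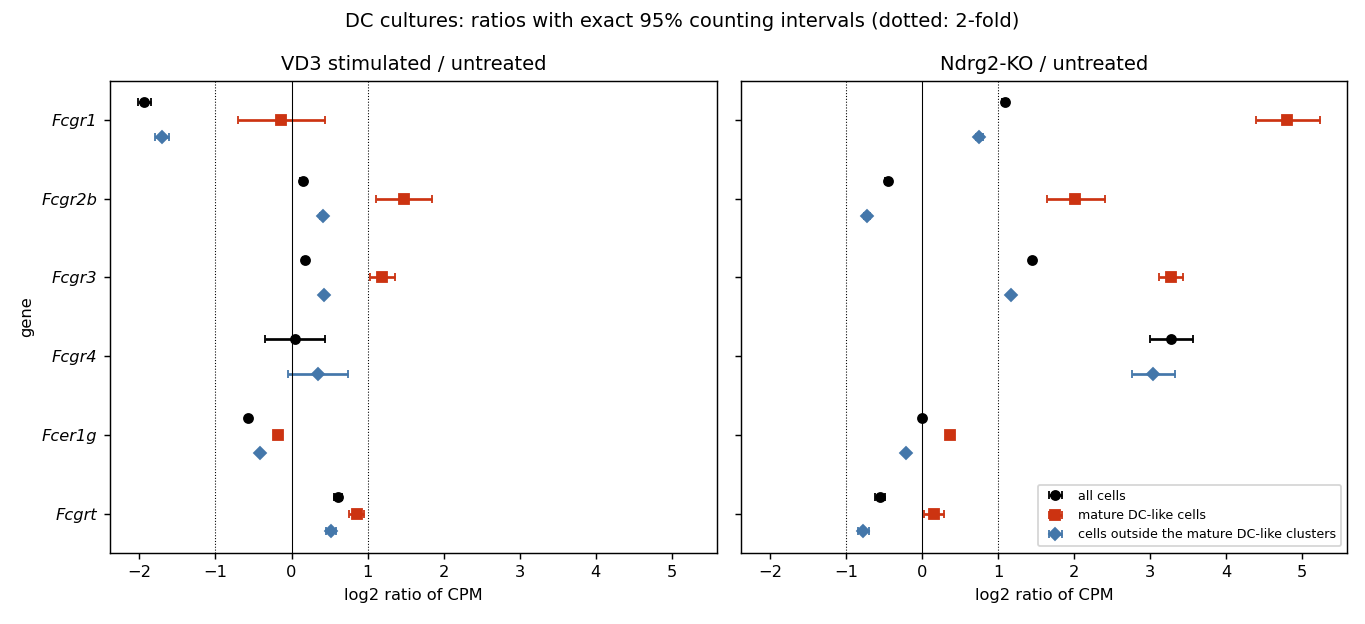
Log2 ratio of CPM (horizontal axes) for 6 of the 7 genes (vertical axes) between VD3 stimulated and untreated DCs (left) and between Ndrg2-KO and untreated DCs (right). Points are all cells, mature DC-like cells and the remaining cells, with exact 95% counting intervals. They are drawn only where the sums held at least 100 UMIs, and dotted lines mark 2-fold. In the edited culture Fcgr1 (4.79) and Fcgr3 (3.27) stand farthest to the right among the points drawn for mature DC-like cells, where Fcgr4 had too few UMIs. Fcgr2b lies at 2.02 in that class and at -0.72 outside it.

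Of 34 further genes of the Fc receptor pathway, 29 had at least 100 UMIs between Ndrg2-KO and untreated DCs, of which 2 were higher and 5 lower past 2-fold, beside 9.12% and 7.94% of all genes. The median log2 ratio of the list was -0.32, and that of all genes was -0.06. Lat, an adaptor that nucleates the signalling complex, was at 4.97 against 1.14 CPM (2.13, 1.87 to 2.39), and Gab2, a docking protein for phosphoinositide 3-kinase, had a log2 ratio of 1.02 (0.93 to 1.11). B2m, the partner of Fcgrt, was at 2481 against 1355 CPM (0.87, 0.86 to 0.88) while Fcgrt itself was lower. Ms4a2 was at 0 in the edited culture, Fcmr, the IgM receptor of lymphocytes, was at 0.0279 against 1.40 CPM (-5.65, -7.55 to -4.27), and Fcrl1 was at 0.237 against 0.573 CPM (-1.28, -1.90 to -0.67).

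Between VD3 stimulated and untreated DCs 29 of the 34 genes were counted, of which 1 was higher and 1 lower past 2-fold, beside 3.68% and 6.61% of all genes, with a median log2 ratio of -0.19 beside -0.08 for all genes. Fcrls, a receptor-like gene of macrophages, was at 2.48 against 25.2 CPM (-3.35, -3.52 to -3.17) and Fcmr at 0.773 against 1.40 CPM (-0.86). Fcrl1 was at 1.89 against 0.573 CPM (1.72, 1.34 to 2.12), Pik3r1, a regulatory subunit of phosphoinositide 3-kinase, at 201 against 129 CPM (0.64, 0.61 to 0.67) and Fcrla at 0.807 against 0.520 CPM (0.63). Between Ndrg2-KO and VD3 stimulated DCs 3 genes of 28 were higher and 6 lower past 2-fold, beside 12.1% and 8.08% of all genes, while 17 lay above 0 and 11 below it, with a median log2 ratio of 0.21 beside 0.0016 for all genes. The higher were Fcrls (2.30, 2.12 to 2.49), Lat (1.78) and Gab2 (1.33), and the lower were Ms4a2 at 0 UMIs, Fcrl1 (0.237 against 1.89 CPM), Pik3r1 (-1.66, -1.69 to -1.62), Fyn (-1.24), Ptpn6 (-1.10) and Fcrla (-1.05). 

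Within the mature class 4 of 23 pathway genes were higher in edited than in untreated cells and none lower, beside 9.85% and 3.12% of all genes, and the 4 were the adaptors Lat2 (1.14), Lcp2 (1.83) and Gab2 (1.21) and the exchange factor Vav1 (1.03). Between VD3 stimulated and untreated mature cells none of 24 was higher and 2 were lower, among them Fcmr (-1.29), beside 3.2% and 3.32%. Between edited and VD3 stimulated mature cells 5 of 23 were higher (Lcp2, Inpp5d, Vav1 and Gab2 among them) and Pik3r1 alone was lower (-1.01), beside 9.36% and 3.35%. Inpp5d was at 37.5 CPM in untreated, 20.7 CPM in VD3 and 56.0 CPM in edited mature cells.

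In the wounds, grouped into 13 clusters in the same way, the receptors differed by cell type. The neutrophil-like clusters 0 and 2 carried Fcgr3 at 306 to 602 CPM and Fcgr4 at 54.0 to 142 CPM, Fcer1g at 1887 to 3297 CPM, and little of the others, with Fcgr1 between 0 and 4.45 CPM, Fcgr2b between 16.8 and 46.0 CPM and Fcgrt between 0 and 3.70 CPM. The macrophage-like clusters 1, 4 and 7 and the DC-like cluster 5, which also held monocyte-like cells, carried all 4 IgG receptors. Fcgr1 was at 60.2 to 165 CPM there, Fcgr2b at 380 to 1114 CPM and Fcgr4 at 75.8 to 160 CPM. Clustering at a resolution of 1.0 gave a monocyte-like cluster of 906 cells and a separate DC-like cluster of 200 cells, with levels summed over the wounds. The monocyte-like cells had Fcgr1 at 175 CPM, Fcgr2b at 478 CPM, Fcgr3 at 340 CPM and Fcgr4 at 111 CPM. The DC-like cells were lower in each, at 27.2, 226, 97.4 and 18.6 CPM. The levels of cluster 5, which held 1108 cells, are thus not those of DC-like cells alone. In fibroblast-like cells, which should lack them, Fcgr1 was at 1.01 to 4.21 CPM and Fcgr3 at 3.43 to 15.1 CPM. NK-like cells, 81 in all and summed over the wounds, had Fcer1g at 1552 CPM and Fcgr3 at 75.7 CPM.

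The share of Fcgr2b in the UMIs of Fcgr2b and Fcgr3 was 59.8% to 67.8% in the macrophage-like clusters 1, 4 and 7 of all 3 wounds, 56.5% to 62.1% in cluster 5, and 3.36% to 13.1% in the neutrophil-like clusters. These ranges did not overlap between neutrophil-like and macrophage-like cells in any wound.

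Fcgrt ordered the macrophage-like clusters in the same way in all 3 wounds. It was lowest in cluster 1, led by Arg1 and Mmp12, at 27.7 CPM (control DCs), 21.7 CPM (Ndrg2-KO DCs) and 38.8 CPM (blank). It was at 474, 505 and 569 CPM in cluster 4, where Fcrls and Cd163 led and C1q genes marked the cells. It was at 1210, 1333 and 1252 CPM in cluster 7, led by Cd209f and Lyve1, markers of macrophages that reside in the skin. Fcgr2b followed the same order with smaller steps, at 570 to 594, 762 to 964 and 1016 to 1114 CPM in clusters 1, 4 and 7. Fibroblast-like cells held Fcgrt at 149.8, 150.9 and 150.9 CPM in the same order, with intervals from 143 to 159 CPM, so that their levels were not distinguishable. These values are descriptions of clusters built from the same cells, without the 7 genes.

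**Figure D5:**
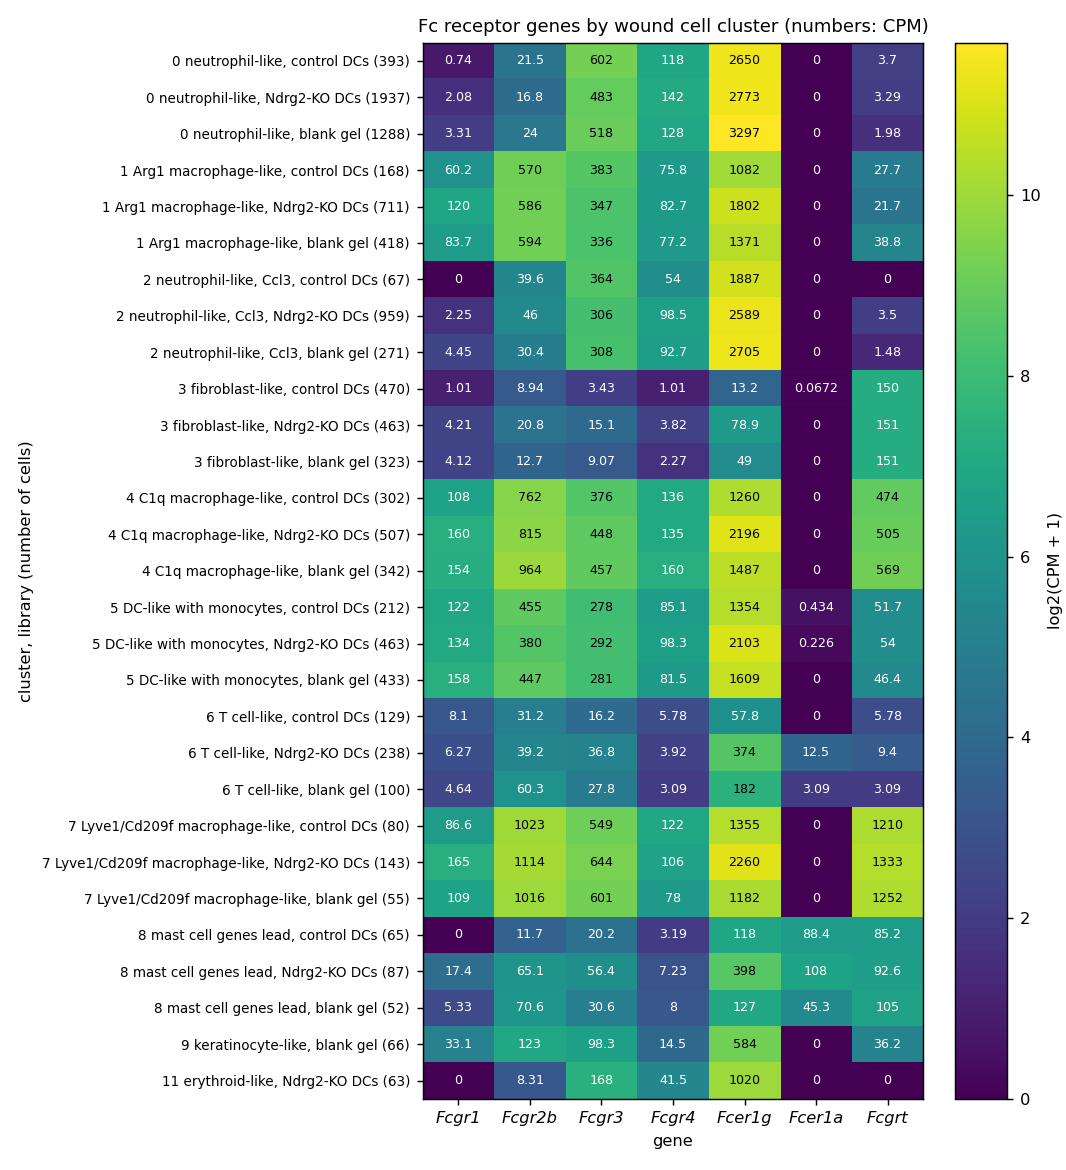
Levels of the 7 genes (columns) in wound cell clusters split by library (rows, with the number of cells, at least 50). Colour is log2(CPM + 1) and the printed number is CPM. Neutrophil-like rows are bright for Fcgr3, Fcgr4 and Fcer1g only, Fcgrt is brightest in the Lyve1/Cd209f rows (1210 to 1333 CPM), and Fcer1a is seen mainly in cluster 8.

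Fcer1a was scarce, with 86, 92 and 36 UMIs in the control DC, Ndrg2-KO DC and blank wounds. Cluster 8, in which endothelial cells and cells with the mast cell proteases Mcpt4 and Cma1 fell together, held 83, 75 and 34 of these UMIs, at 88.4, 108 and 45.3 CPM. T cell-like cells held 0, 16 and 2.

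Summed over all wound cells, Fcer1g was at 585.5 CPM with control DCs, 1495 CPM with Ndrg2-KO DCs and 1228 CPM in blank wounds, with log2 ratios to the control of 1.35 (1.33 to 1.38) and 1.07 (1.04 to 1.09). Fcgr1 (33.3, 64.0 and 58.3 CPM), Fcgr3 (163, 268 and 249 CPM), Fcgr4 (43.3, 71.7 and 66.0 CPM) and Fcgr2b (238, 314 and 313 CPM) were likewise lowest with control DCs, and Fcgrt was lowest in blank wounds (207, 195.5 and 156 CPM). With the same weight for every cell the log2 ratios of Fcgr2b to control DCs turned to -0.27 with Ndrg2-KO DCs and -0.02 in blank wounds, and those of Fcgrt became -0.79 and -0.72. The ratios of Fcgr1, 0.94 and 0.81 in the sums, were 0.24 and 0.34 under that weighting, those of Fcgr3 were 0.26 and 0.34 in place of 0.72 and 0.61, and that of Fcer1a with Ndrg2-KO DCs turned from -0.63 to 0.38. Neutrophil-like cells were 23.6%, 51.0% and 45.8% of the 3 libraries and fibroblast-like cells 24.1%, 8.15% and 9.49%, so cell makeup moved with these sums. One member of 7 passed 2-fold with Ndrg2-KO DCs (Fcer1g, higher, beside 9.21% of 12207 genes) and 2 in blank wounds (Fcer1g higher and Fcer1a lower, beside 6.24% of 11916 genes). The counts past 2-fold were 0 and 1 under that weighting.

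Within cell classes most of these differences were smaller. Over the macrophage-like and DC-like clusters together, Fcgr2b was at 683, 678 and 672 CPM in the control DC, Ndrg2-KO DC and blank wounds, and Fcgr3 at 381, 404 and 367 CPM. No member passed 2-fold in this class, beside 3.42% of 9294 genes with Ndrg2-KO DCs and 2.37% of 8885 genes in blank wounds. Fcer1g was at 1252, 2033 and 1457 CPM, with log2 ratios to control DCs of 0.70 (0.67 to 0.73) and 0.22 (0.19 to 0.25). Fcer1g was highest with Ndrg2-KO DCs in each of clusters 1, 4, 5 and 7, for example at 1260, 2196 and 1487 CPM in cluster 4. In fibroblast-like cells Fcer1g moved in the same order, at 13.2 CPM with control DCs, 78.9 CPM with Ndrg2-KO DCs and 49.0 CPM in blank wounds, and the part of free RNA in the macrophage values was not tested. Fcgr1 was at 96.1, 140 and 124 CPM in the class, with log2 ratios of 0.54 (0.44 to 0.65) and 0.37 (0.25 to 0.48). Its ratio for Ndrg2-KO DCs was 0.99 (0.74 to 1.25) in cluster 1, 0.57 (0.40 to 0.75) in cluster 4, 0.94 (0.65 to 1.23) in cluster 7 and 0.13 (-0.07 to 0.34) in cluster 5. In fibroblast-like cells Fcgr1 was at 1.01, 4.21 and 4.12 CPM, likewise lowest with control DCs. Fcgrt was at 376, 340.5 and 247 CPM in the class, while within clusters 4 and 7 the lowest level was that with control DCs. Clusters 4 and 7, the highest for Fcgrt, held 302 and 80 of 762 cells of the class with control DCs, 507 and 143 of 1824 with Ndrg2-KO DCs and 342 and 55 of 1248 in blank wounds.

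In neutrophil-like cells no member passed 2-fold either, beside 6.35% of 4157 genes with Ndrg2-KO DCs and 5.35% of 3755 genes in blank wounds. Fcgr3 was at 561 CPM (525 to 599) with control DCs, 411 CPM (398 to 424) with Ndrg2-KO DCs and 470 CPM (452 to 488) in blank wounds, the reverse of its order over all cells. The class joined cluster 0 (393, 1937 and 1288 cells) with cluster 2 (67, 959 and 271 cells), which had less Fcgr3 and a larger share of the class with Ndrg2-KO DCs, and the part of this mix in the pooled values was not tested. Within cluster 0 Fcgr3 was at 602, 483 and 518 CPM, a log2 ratio of -0.32 (-0.43 to -0.20) with Ndrg2-KO against control DCs, and within cluster 2 at 364, 306 and 308 CPM, with a ratio of -0.25 whose interval held 0 (-0.54 to 0.06). Fcgr4 was at 107, 124 and 120 CPM, with intervals that overlapped, and Fcer1g at 2520, 2698 and 3161 CPM, where the median log2 ratio of all genes to control DCs was -0.03 with Ndrg2-KO DCs and 0.21 in blank wounds.

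Among the pathway genes, 26 of 34 were counted over all wound cells, of which 4 were higher past 2-fold and none lower with Ndrg2-KO DCs (beside 3.92% and 5.28% of all genes, with a median of 0.40 beside -0.14), and likewise in blank wounds (beside 3.06% and 3.17%, with a median of 0.55 beside -0.03). With Ndrg2-KO DCs these included Tyrobp, another ITAM adaptor (1.32), the Src family kinase Fgr (1.11), and Lcp2 (1.02), and in blank wounds Fgr (1.64), Ptpn6 (1.17) and Tyrobp (1.15). Within the macrophage-like and DC-like class the median was -0.04 over 24 genes with Ndrg2-KO DCs, with no gene past 2-fold (beside 2.65% and 0.775% higher and lower), and 0.10 over 23 genes in blank wounds, where Fgr passed (60.4 against 28.5 CPM, 1.09, 0.89 to 1.28), beside 1.45% and 0.923%. In neutrophil-like cells none of 18 passed in either wound comparison. With Ndrg2-KO DCs 16 of them were lower and 2 higher, with a median of -0.31 beside -0.03 for all genes. In blank wounds 9 were lower and 9 higher, with a median of 0.07 beside 0.21.

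The genes whose levels ran most alike were named from Pearson correlations of log2(CPM + 1) over clusters, as descriptions over points that share libraries. Over 13 wound clusters these were Aif1 (0.98) and Clec4a1 (0.98) for Fcgr1, Clec4a1 (0.98) and Unc93b1 (0.98) for Fcgr2b, Cd300a (0.98) and Alox5ap (0.98) for Fcgr3, Cd300ld (0.98) and C5ar1 (0.97) for Fcgr4, Tyrobp (0.99) and Lyn (0.98) for Fcer1g, the mast cell genes Cpa3 and Tpsb2 (0.99) for Fcer1a, and Myo7a (0.97) and Gas6 (0.97) for Fcgrt. Over 17 DC clusters they were Ifi207 (0.94) for Fcgr1, Clec4e (0.96) for Fcgr2b, Lgals9 (0.96) for Fcgr3, Chil1 (0.94) for Fcgr4, Fry (0.98) for Fcer1g, Ms4a2 (0.999) for Fcer1a and Thnsl1 (0.90) for Fcgrt. Fcer1a had 629 UMIs in the cultures and 214 in the wounds, most of them in 1 cluster of each set. Its correlations therefore rest largely on that cluster. Between members, Fcer1g ran with Fcgr2b (0.91), Fcgr3 (0.85), Fcgr4 (0.71) and Fcgr1 (0.69) in the cultures and with Fcgr3 (0.96) in the wounds. Fcgr3 ran with Fcgr4 in the wounds (0.96) and with Fcgr2b in the cultures (0.89), Fcgr1 ran with Fcgr2b in the wounds (0.93), and Fcgrt ran with none of the others above 0 in the cultures but with Fcgr1 (0.65) and Fcgr2b (0.63) in the wounds.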

How the data were processed

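The authors prepared droplet libraries (10x 3′ v3) and deposited raw UMI counts per gene and barcode, 1 matrix per condition. The file headers name Cell Ranger 3.1.0 for the cultures and 6.0.0 for the wounds, and the submitters' notes name mm9 and Seurat 3.1.1, whereas the methods name mm10. Hashtag features are listed with 0 counts. The members and gene lists were chosen with earlier results of these data known, and the motifs and the class of cells outside the mature clusters after the sequences and values were seen.

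Barcodes were kept above a minimum of 300 genes and below 100000 UMIs and 10% of UMIs from mitochondrial genes, which left out 609 to 1857 barcodes per library. Cultures and wounds were clustered separately in Seurat 5.3.0 (R 4.3.3) without the 7 members, with 2000 variable genes, 15 principal components, 15 neighbours and resolution 0.5, and clusters were named from at least 3 markers. Scrublet (scanpy 1.11.5) called at most 0.873% of a library as doublets, too few to rely on, and none was removed. UMIs were summed per library, cluster or class (SciPy 1.17.1). Ratios have exact conditional binomial and shares exact binomial 95% intervals, checked on simulated data; all cover counting error only, since each condition is 1 library and no test was possible. A member or gene was counted past 2-fold with at least 100 UMIs in the 2 sums. Shares of cells used 2000 UMIs (cultures) or 1000 UMIs (wounds) per cell. Named genes were the 7 members, the pathway genes with the 3 largest ratios in each direction per culture comparison (same UMI minimum), and those of the 3 genes most like each member over clusters (at least 500 UMIs, clusters of at least 50 cells). Other pathway genes past 2-fold, and Inpp5d, were named after their values were seen. Some pathway genes are counted without their own values being reported here. Promoters and gene positions were read from RefSeq (GRCm38.p6) and GENCODE M21 tables by symbol and gene ID, and all 7 matched. The alternatives were other cell filters, scalings, weights, UMI minimums and clusterings.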

Additional observations from a re-analysis of the deposited data

Results flagged for a closer look

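In these results a member was higher in the first library in 1 class of cells and lower in another, with counting intervals on opposite sides of 0. The difference between the classes was not tested, since each condition is 1 library. Between wounds with Ndrg2-KO and control DCs, Fcgr3 had a log2 ratio of 0.0852 in the macrophage-like and DC-like cells and -0.45 in neutrophil-like cells. The neutrophil-like class joined 2 clusters in unequal parts, and within them the ratio was -0.32 in cluster 0 and -0.25 in cluster 2, where its counting interval (-0.54 to 0.06) held 0. Of the macrophage-like and DC-like clusters, cluster 1 had -0.14, and clusters 4, 5 and 7 had 0.25, 0.07 and 0.23. Between Ndrg2-KO and untreated DCs, Fcgr2b had 2.02 in mature DC-like cells and -0.72 outside them, Fcer1g 0.37 and -0.21, and Fcgrt 0.15 and -0.77. The sign of Fcer1g outside the mature clusters turned among cells under 5% mitochondrial UMIs (0.05), where the ratio of Fcgr2b came to -0.09, and that of Fcgrt in mature cells turned with median-ratio scaling (-0.05). Between Ndrg2-KO and VD3 stimulated DCs, Fcgr2b had 0.54 and -1.13, and 2.47 and -0.56 among cells under 5% mitochondrial UMIs. In the mature class Fcgr2b rested on 212 UMIs in the edited, 84 in the untreated and 286 in the VD3 culture.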

How the results depend on the processing

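No paired analysis was possible because each condition was 1 library. Of 100 counts of members past 2-fold recomputed under other settings, 91 stayed within 1.5 times of the reported count. These leave out the cells outside the mature clusters and the edited against VD3 stimulated mature cells. Among the counts for those, 38 stayed and 2 moved. Between VD3 stimulated and untreated mature DC-like cells the count was 0 under 5% mitochondrial UMIs and 1 with 30 principal components, in place of 2. Between Ndrg2-KO and VD3 stimulated DCs it was 3 with equal weight per cell, in place of 5, and outside the mature clusters 3 with equal weight or under 5% mitochondrial UMIs, in place of 5. Between wounds with Ndrg2-KO and control DCs it was 2 with median-ratio scaling and 0 with equal weight per cell, in place of 1. Between blank and control wounds it was 1 without the highest 6% of doublet scores and 1 with equal weight per cell, in place of 2. In neutrophil-like cells it was 1 in each wound comparison with at least 20 UMIs, in place of 0. The cause was not tested. The log2 ratio of Fcgr2b between Ndrg2-KO and untreated DCs ran from -0.54 to 0.33, that of Fcgr1 from 1.01 to 1.33, that of Fcgr3 from 1.30 to 1.75 and that of Fcgr4 from 2.38 to 3.34. In mature DC-like cells Fcgr1 ran from 4.45 to 4.81, Fcgr2b from 1.59 to 3.49 and Fcgr3 from 2.95 to 3.88, and against VD3 stimulated cells Fcgr2b ran from 0.19 to 2.47 and Fcgr3 from 1.89 to 3.09. Counting intervals do not cover culture, animal or library differences.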
